A study of Macaca mulatta with 2 samples.

Results

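LMAN1 and 9 further genes of protein folding in the endoplasmic reticulum (ER) and of export from it were followed in cultured Sertoli cells of infant and pubertal rhesus macaques. The members are LMAN1, MCFD2, LMAN2, SEC23A, SEC24D, CANX, CALR, PDIA4, XBP1 and HERPUD1, taken by gene name from the gene probes of both scanner files, with every probe of each gene. That gave 17 of the 41000 probes of the array, with 2 probes for 7 genes and 1 probe for 3. The members were chosen by the pubertal against infant log2 ratio of LMAN1 on these same arrays, with the genes that work beside it. The pubertal against infant values of the members are therefore given as a description, with no test.

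The samples were 2 two-colour arrays, and each set RNA of 1 pubertal culture against RNA of 1 infant culture from other animals. Infant donors were younger than 3 months. Pubertal donors, aged 18 to 22 months, were juveniles brought into puberty by intermittent GnRH (gonadotropin-releasing hormone), infused at 0.15 µg/min for 2 min at intervals of 3 h over 4 to 5 weeks. Every culture, infant or pubertal, was kept with 100 nM testosterone and 5 ng/ml FSH (follicle-stimulating hormone) for 24 h, so no comparison here concerns the hormones themselves. Pubertal RNA carried the red dye Cy5 on array 1 and the green dye Cy3 on array 2, and infant RNA carried the other dye. The pubertal state was induced and the cells were primary cultures, which can hold other testicular cells. In such bulk RNA, fewer cells of a type and less RNA per cell cannot be told apart.

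Sertoli cells secrete large amounts of glycoprotein, which passes through the ER. There the lectin chaperones calnexin and calreticulin hold new glycoproteins while disulfide isomerases such as PDIA4 form their disulfide bonds. Folded cargo leaves in vesicles coated by COPII, whose inner layer holds SEC23 and SEC24 proteins. LMAN1 (also called ERGIC-53) is a mannose-binding cargo receptor that cycles between the ER and the Golgi, and with its partner MCFD2 it carries coagulation factors V and VIII and other glycoproteins out of the ER. When unfolded protein builds up, the unfolded protein response turns on XBP1 and the degradation gene HERPUD1, among others.

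The array carries human 60-base probes, so macaque RNA was read by human sequence. The LMAN1 probes are shown because they gave very different ratios, although both are assigned to the same transcript and lie 340 bases apart. They are given by their first 30 bases of 60, from 5′ to 3′ and in lower case, with no part marked.
LMAN1 A_23_P78342: ttgactaccattttcctgtgtacttcatct
LMAN1 A_24_P159702: catcaggtttattttgtaaccaaagtcttt
In the human build hg17 given by the files, the probe A_23_P78342 lies at chr18:55149249-55149308 and the probe A_24_P159702 at chr18:55148849-55148908, both on the minus strand. No exon or UTR annotation of that build was used here. Their GC contents were 35% and 36.7%.

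The LMAN2 probes are shown whole because they cross exon junctions and so match spliced RNA. Their 60 bases span 172 bases of the genome for A_24_P9285 (chr5:176696809-176696980, minus strand) and 2097 bases for A_23_P9591 (chr5:176691851-176693947, minus strand).
LMAN2 A_24_P9285: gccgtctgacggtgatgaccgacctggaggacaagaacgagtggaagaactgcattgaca
LMAN2 A_23_P9591: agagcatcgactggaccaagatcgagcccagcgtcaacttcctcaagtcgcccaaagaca
The single PDIA4 probe (chr7:148138552-148138611, minus strand) and the upstream XBP1 probe (chr22:27517660-27517719, minus strand) are shown for the results on these genes.
PDIA4 A_23_P42802: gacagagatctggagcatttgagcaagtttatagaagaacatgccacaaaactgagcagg
XBP1 A_24_P100228: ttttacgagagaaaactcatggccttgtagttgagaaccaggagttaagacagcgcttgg

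Between 60.9% and 74.8% of the 43376 gene spots were well above background in the 4 channels. Sertoli cell markers were read from a list of 23 genes. Of the 22 on the array 20 were measured, among them the Sertoli transcription factors SOX9 and WT1, the hormone genes AMH and INHA and the claudin CLDN11. The Sertoli markers GATA1 and SHBG were not, and FSHR, the FSH receptor, was dim, well above background for pubertal RNA on 1 of 2 arrays. Detection of these markers does not by itself fix the cell identity, since Leydig cell genes such as CYP11A1 and STAR were measured too. Of 25759 tested probes 0 passed limma's test with Benjamini-Hochberg adjustment (0%), with 1042 at an unadjusted p under 0.05.

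LMAN1 was the member furthest apart between the stages, and it was so on both arrays. Levels are normalised intensities in arbitrary units, comparable between cultures for 1 probe and not between probes. At the probe A_23_P78342 the level was 624 in the pubertal and 150.0 in the infant culture of array 1. On array 2 it was 575 in the pubertal and 149 in the infant culture. Both pubertal cultures were thus about alike and above both infant cultures, whichever dye they carried. Expressed as log2 of the pubertal to infant ratio, array 1 gave 2.06 and array 2 gave 1.95, with a mean of 2.00 ± 0.24 (moderated standard error, n = 2 pairs), or 4.01-fold. Read as Cy5 over Cy3, a direction in which a difference between the stages cancels, the same probe had a mean of 0.05. In that direction 0.21% of tested probes were at least 2-fold higher on each array and 0.474% at least 2-fold lower.

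The LMAN1 signal in infant cells was faint. The spot's mean intensity before any correction was 89.0 in the infant channel of array 1 against a local background of 46.0, and 189 against 46.5 on array 2. In the pubertal channels it was 1043 against 49.0 and 416 against 41.0. All 4 spots were well above background by the scanner's mark and none was saturated. The processing adds an offset of 50 to both channels, which makes ratios of dim spots smaller. With the scanner's own background-subtracted signals the LMAN1 ratios were 8.55-fold on array 1 and 5.24-fold on array 2, a mean log2 ratio of 2.74. The authors' deposited table gives this probe log2 ratios of 3.09 and 2.38.

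The further LMAN1 probe, A_24_P159702, pointed the same way by much less. Its levels were 220.2 in the pubertal and 162 in the infant culture of array 1, and 218 and 164 on array 2. Again both pubertal cultures lay above both infant cultures. The log2 ratios were 0.45 and 0.41, a mean of 0.43 ± 0.24 or 1.35-fold. The first probe was higher than the second by 1.61 on the log2 scale on array 1 and by 1.54 on array 2. The gap between the probes was thus wide beside the gap between the arrays, and the data do not fix 1 size for the LMAN1 difference. No macaque sequence was used here to see which of the probes matches the transcript better. Only the first probe stands in the authors' deposited table.

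**Figure D1:**
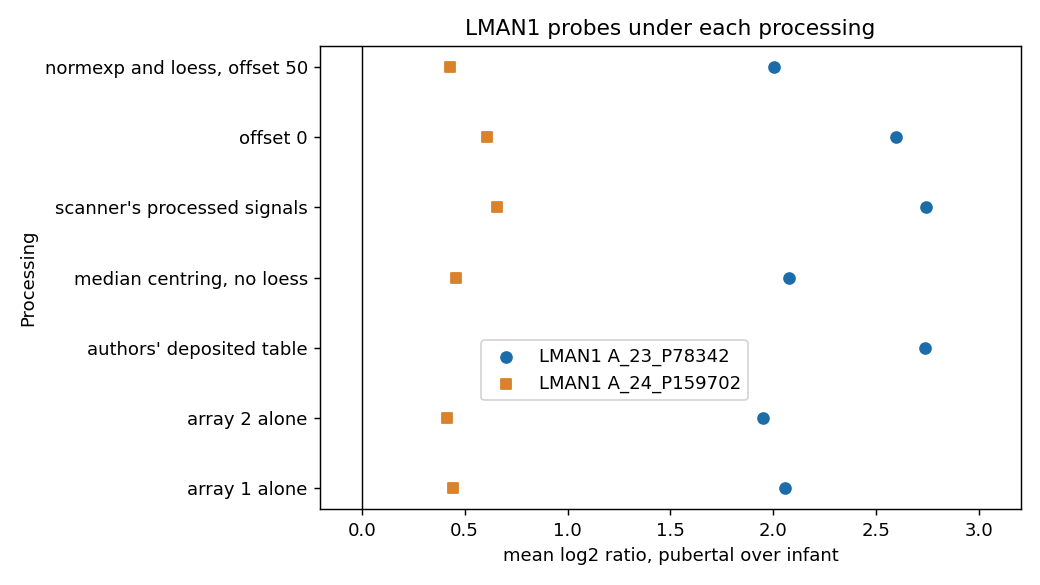
Mean log2 ratio of pubertal over infant (x axis) for the LMAN1 probes A_23_P78342 (circles) and A_24_P159702 (squares) under each processing (y axis); the lower rows take 1 array alone. The first probe lies between 1.95 and 2.74 and the second between 0.41 and 0.66, with no overlap.

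Among the 17 member probes 1 was at least 2-fold higher in pubertal cultures on both arrays, A_23_P78342 of LMAN1, and 0 were at least 2-fold lower. The corresponding shares of all tested probes were 0.303% and 0.299%, and those of genes by their brightest probe 0.342% and 0.352%. Ordered by mean ratio, this LMAN1 probe was 15th of 25759, and by the smaller of its 2 ratios it was 5th. Since LMAN1 was chosen by this ratio, its place and its 2-fold count follow from the choice. Over the members, 4 probes were higher on both arrays, 5 lower on both and 8 had opposite signs. Over all tested probes 23.4% were higher on both and 21.9% lower. The median of the members' mean log2 ratios was -0.11. All 17 passed the filter on dim probes, and 15 were well above background in all 4 channels.

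**Figure D2:**
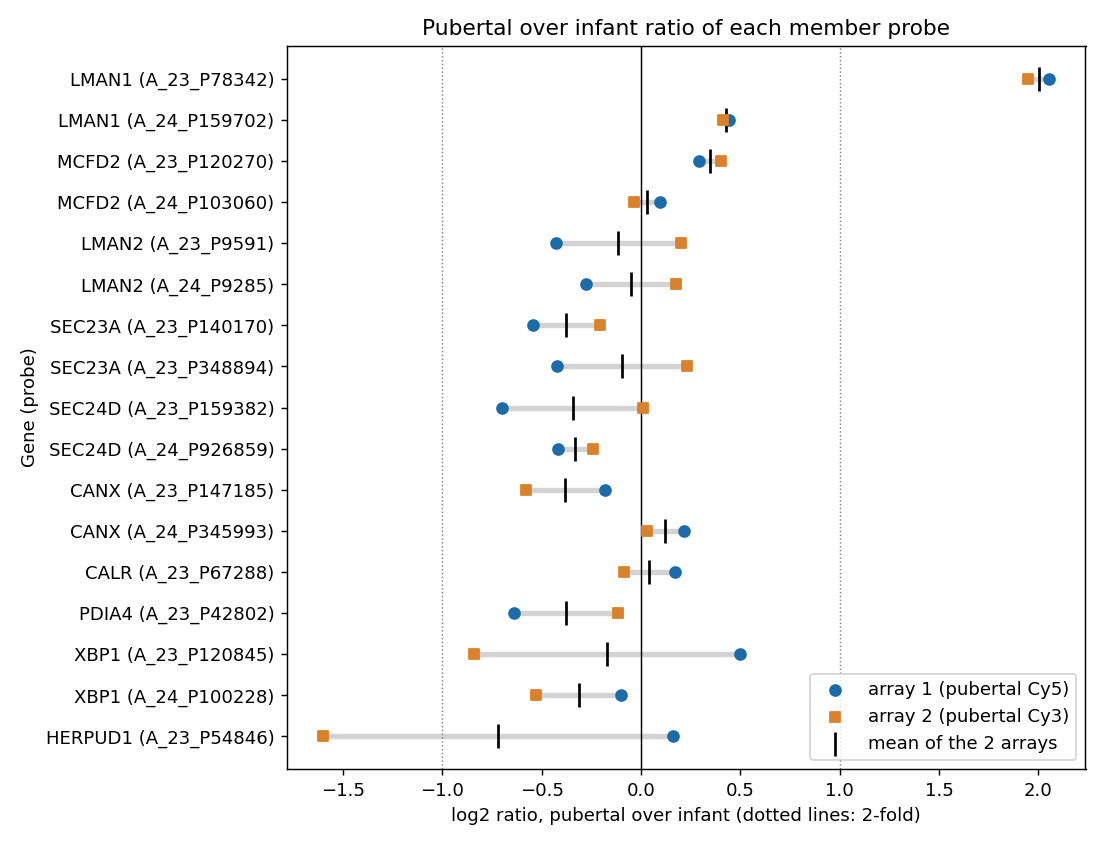
Log2 ratio of pubertal over infant (x axis) for each of the 17 member probes (y axis) on array 1 (circles) and array 2 (squares), with the mean as a bar and dotted lines at 2-fold. The LMAN1 probe A_23_P78342 stands alone near 2 on both arrays, and the HERPUD1 probe and the XBP1 probe A_23_P120845 lie far apart between arrays.

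**Figure D3:**
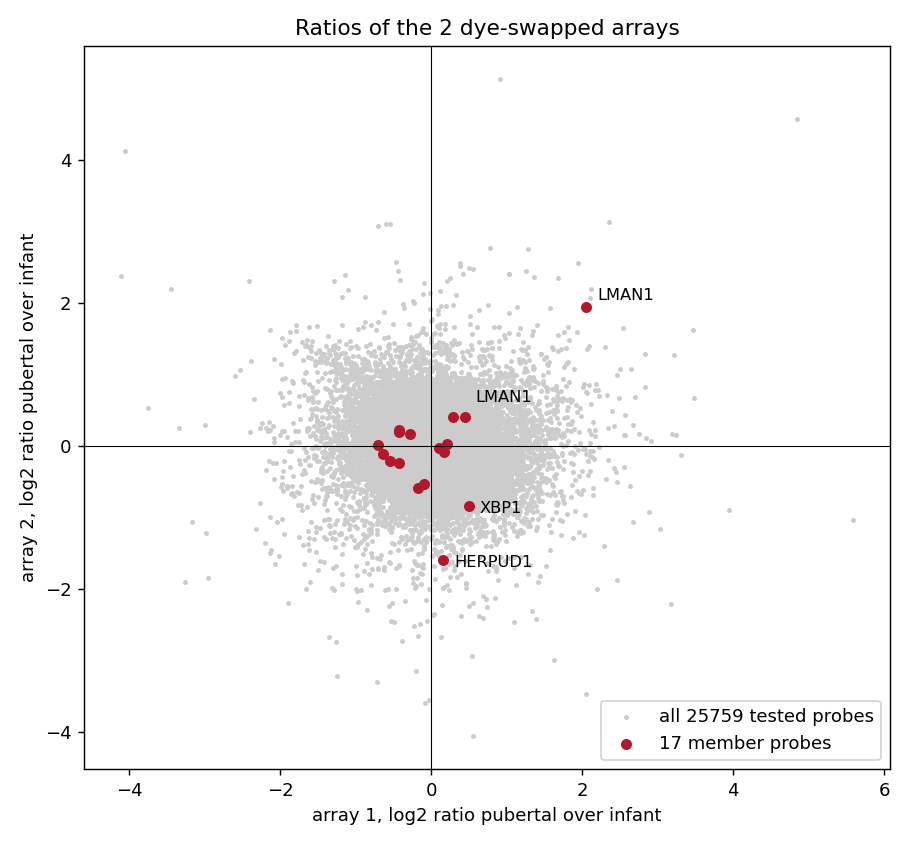
Log2 ratios of pubertal over infant on array 1 (x axis) and array 2 (y axis) for the 25759 tested probes (grey) and the 17 member probes (red). LMAN1 lies in the sparse upper right at 2.06 and 1.95, HERPUD1 lies low on array 2 at -1.60, and most members lie within the cloud.

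MCFD2, the calcium-binding partner of LMAN1, differed little. At its bright probe A_23_P120270 the level was 5578 in the pubertal and 4555 in the infant culture of array 1, and 7830 and 5927 on array 2. The pubertal culture was the higher of each pair, but the infant culture of array 2 lay above the pubertal culture of array 1. The log2 ratios were 0.29 and 0.40, a mean of 0.35 ± 0.24. The dim MCFD2 probe A_24_P103060, well above background for infant RNA on 1 of 2 arrays, stayed between 87.1 and 93.1 in the 4 cultures, with log2 ratios of 0.10 and -0.03. LMAN1 and MCFD2 work as a complex, and the mean ratio of the brighter probe was 4.01-fold for LMAN1 and 1.27-fold for MCFD2. The other probe gave 1.35-fold for LMAN1 and 1.02-fold for MCFD2, so the gap between the partners depends on the LMAN1 probe taken.

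LMAN2 (VIP36), a related lectin of the early secretory pathway, was a bright gene with no shared direction. At A_24_P9285 the levels were 9231 pubertal and 11180 infant on array 1, and 9391 pubertal and 8323 infant on array 2. The groups overlapped, with log2 ratios of -0.28 and 0.17. The probe A_23_P9591 gave -0.43 and 0.20. Both junction probes of LMAN2 therefore showed the same signs on each array, and their means were -0.05 ± 0.26 and -0.11 ± 0.28.

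The COPII members were somewhat lower or alike in pubertal cultures. SEC23A, of the inner coat, stimulates GTP hydrolysis by the GTPase SAR1. At A_23_P140170 its levels were 1214 pubertal and 1772 infant on array 1 and 1489 and 1716 on array 2. Both pubertal cultures lay below both infant cultures there, with log2 ratios of -0.55 and -0.20 and a mean of -0.38 ± 0.25. At its further probe A_23_P348894 the signs were opposite, -0.42 and 0.23. SEC24D, a cargo-binding subunit of the coat known for procollagen export, had levels of 1466 pubertal and 2380 infant on array 1 and 2606 and 2589 on array 2. The pubertal culture of array 1 was the lowest of the 4 and the other 3 lay close together, so the ratios of A_23_P159382 were -0.70 and 0.01. The other SEC24D probe, A_24_P926859, was designed on a separate cDNA and was very dim, between 76.0 and 102 in all cultures. It passed the filter on dim probes through the infant channels alone, which partly fixes its direction. Its ratios were -0.42 and -0.24, and -1.56 and -0.91 with the scanner's signals. The authors' deposited table lists it at -1.64 on array 1.

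The lectin chaperones were under 2-fold apart between the stages at each of their probes on both arrays. CANX, the membrane-bound calnexin, had levels of 8997 pubertal and 10190 infant on array 1 and 6992 and 10460 on array 2 at A_23_P147185. Both pubertal cultures were below both infant cultures, with log2 ratios of -0.18 and -0.58 and a mean of -0.38 ± 0.26. The dimmer CANX probe A_24_P345993 pointed the other way, at 0.22 and 0.03. The direction of CANX thus differed between its probes. CALR, the soluble calreticulin, read 32220 pubertal and 28650 infant on array 1 and 35570 and 37790 on array 2. Its Cy5 spot was saturated on both arrays, so its ratios of 0.17 and -0.09 were not fully measured, and with the scanner's signals they were 0.08 and 0.11. PDIA4 (ERp72), a disulfide isomerase, had levels of 6306 pubertal and 9839 infant on array 1 and 7704 and 8339 on array 2. Both pubertal values lay below both infant values, and the mean log2 ratio was -0.38 ± 0.27, from -0.64 and -0.11.

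Both pubertal levels lay above both infant levels at 3 member probes and below them at 4, and the groups overlapped at 10. Over all tested probes the shares were 15.5% above and 14% below. The 3 above were both LMAN1 probes and the dim CANX probe. The 4 below were A_23_P140170 of SEC23A, A_24_P926859 of SEC24D, A_23_P147185 of CANX and the PDIA4 probe. Median centring in place of loess moved all tested probes to medians of 0.57 on array 1 and -0.37 on array 2, so its ratios are given less those medians. On that scale LMAN1 was at 2.01 and 1.94 at A_23_P78342 and at 0.19 and 0.52 at A_24_P159702. The bright MCFD2 probe, A_23_P140170 of SEC23A and the PDIA4 probe also kept their signs. The MCFD2 probe was then at only 0.03 on array 2, and PDIA4 at only -0.04 on array 1. Both CANX probes, A_24_P926859 of SEC24D and A_24_P100228 of XBP1 took opposite signs on the 2 arrays.

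HERPUD1 and the bright XBP1 probe went different ways on the 2 arrays, and at both the infant culture of array 2 was the highest of the 4. HERPUD1, a membrane protein of ER-associated degradation, had levels of 12390 pubertal and 11070 infant on array 1. On array 2 it was 11090 in the pubertal and 33580 in the infant culture. The other 3 cultures were therefore alike, and the infant culture of array 2 was 2.71-fold above the highest of them. The log2 ratios were 0.16 and -1.60, so the mean of -0.72 ± 0.45 describes neither pair. XBP1, the transcription factor spliced by IRE1 in the unfolded protein response, had levels of 11210 and 7937 on array 1 and 12730 and 22760 on array 2 at A_23_P120845, pubertal first. Its ratios were 0.50 and -0.84. The upstream XBP1 probe A_24_P100228 gave 1012 and 1083 on array 1 and 1151 and 1663 on array 2, with ratios of -0.10 and -0.53. The infant culture of array 2 was highest at both XBP1 probes. The spliced form of XBP1 was not measured separately. Infant RNA was in Cy5 on array 2, so this culture and this dye cannot be told apart for the array taken alone.

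**Figure D4:**
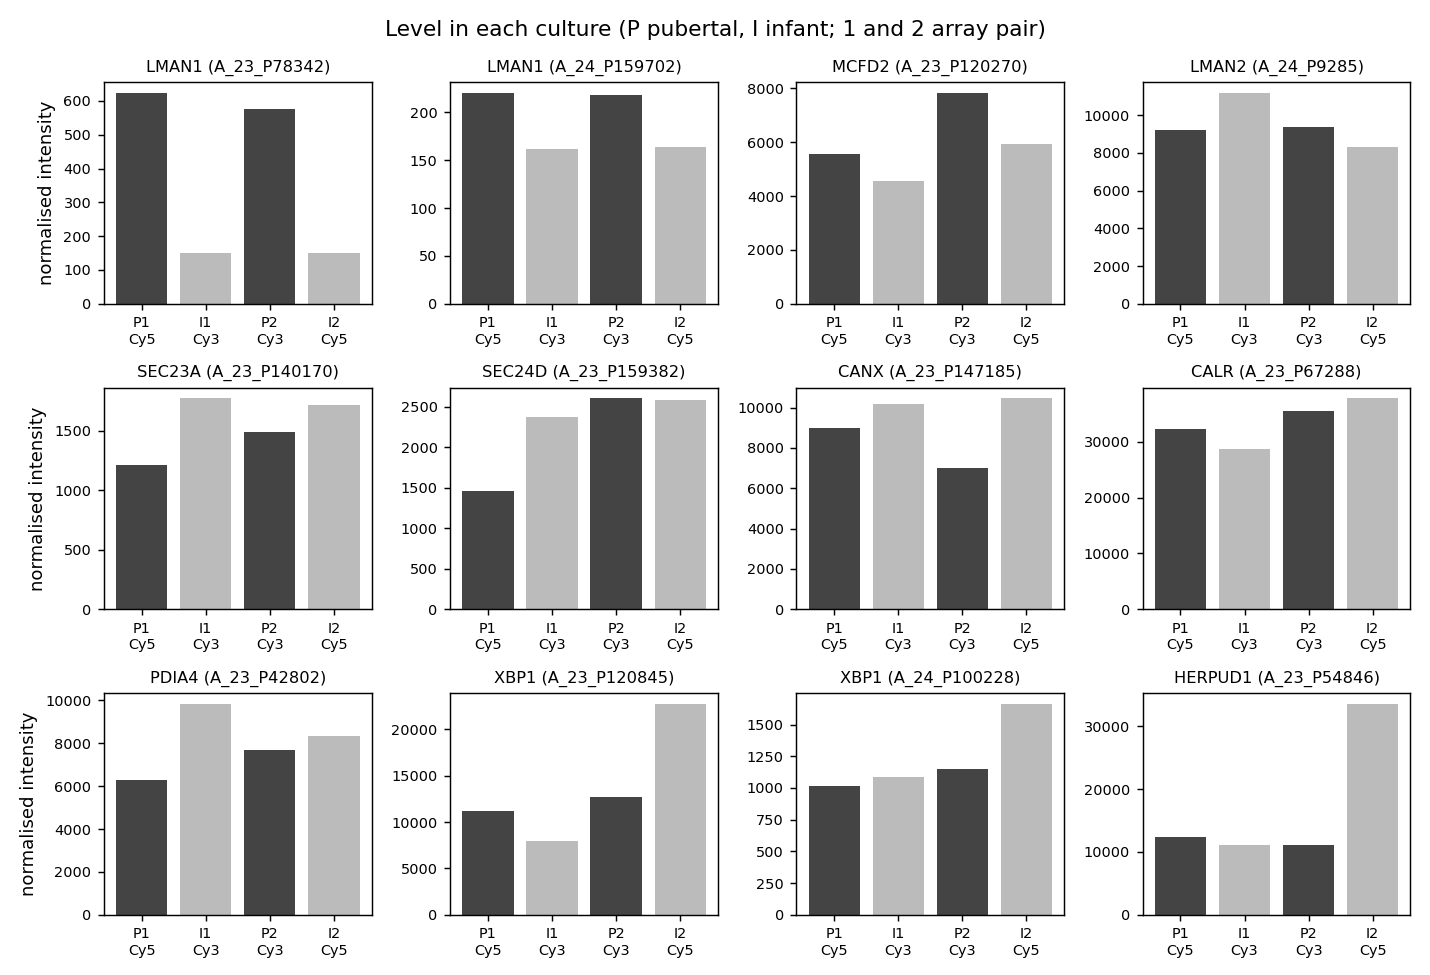
Normalised intensity (y axis, arbitrary units, from 0) in the 4 cultures for 12 member probes; P is pubertal, I infant, and 1 and 2 the array pair, with the dye below. LMAN1 is higher in both pubertal cultures, while HERPUD1 and XBP1 are highest in the infant culture of array 2 (33580 for HERPUD1 against 11070 to 12390).

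Genes that act beside XBP1 and HERPUD1 were read from a list of the unfolded protein response, of which all 27 were measured. Of its 26 genes that are no members 0 passed the limma test after adjustment and 1 had an unadjusted p under 0.05. Higher on both arrays was 1 and lower on both were 7, and with median centring, less the medians of all probes, 3 and 5. With XBP1 the shares were 3.7% and 25.9%, against 23.5% and 21.9% of all genes. On the median-centred scale they were 11.1% and 18.5%, against 14.9% and 15%. The share of lower genes was thus near that of all genes. On array 2, 8 of the 27 were at least 2-fold lower in the pubertal than in the infant culture, against 2.37% of all genes, and on array 1 0 were, against 2.97%. With median centring before the medians were taken off, the count on array 2 was 12, or 44.4% against 13.9% of all genes, and after it 9, or 33.3% against 4.34%. The infant culture of array 2 had the highest level of the 4 for 15 of 27, or 55.6%, against 26.2% of all genes. The same culture was highest for 42.9% of the COPI list, 42.4% of the translocon list, 41.7% of the COPII list and 34.1% of the folding list. That measure was chosen after the values were seen. The widest differences on array 2 were in TRIB3 and CHAC1, both induced by ATF4 and CHOP, at -0.03 and -3.55 for TRIB3 and -0.20 and -3.15 for CHAC1. SESN2, a stress-induced sestrin, was at -0.70 and -1.72, and DDIT3, which encodes CHOP, at -0.07 and -1.33. With median centring, less the medians, TRIB3 was above 0 on array 1, and CHAC1, DDIT3 and SESN2 kept their signs. On array 1, however, CHAC1 was then at only -0.02 and DDIT3 at only -0.07. A further TRIB3 probe had a mean of -1.08. Chosen after their values were seen, the IRE1 gene ERN1 was at 0.31 and -1.15 and, from the folding list, the XBP1 target DNAJB9 was at 0.52 and -1.37 and the chief ER chaperone HSPA5 (BiP) at 0.35 and -0.37. A further probe of ERN1 had a mean of 0.04, and one of HSPA5 a mean of 0.004. Other genes of the folding list were higher in the pubertal culture on array 2. HSP90B1 was at -0.36 and 0.90, MANF at 0.26 and 0.41 and HYOU1 at -0.14 and 0.29, with saturated spots for HSP90B1 and MANF. The median of the 44 folding genes on array 2 was -0.10, against -0.03 over all genes.

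Of 29 measured ER-associated degradation genes beside HERPUD1, higher on both arrays were 6 and lower were 4, and 0 passed. With HERPUD1 the shares were 20% and 13.3%, against 23.5% and 21.9% of all genes. With the scanner's signals 4 were higher and 6 lower, or 13.3% and 20% against 23.7% and 23.2%. EDEM1, which hands glycoproteins to degradation, was at -0.15 and -0.85, and EDEM2 at -0.72 and -0.22. HERPUD2, a relative of HERPUD1, was at -0.97 and -0.05, unlike HERPUD1 in being low on array 1. UFD1, a partner of the ATPase VCP, was at 0.89 and 0.06. Other probes gave means of -0.36 for EDEM1, -0.13 for EDEM2 and -0.14 for HERPUD2. With median centring, less the medians, EDEM2 and HERPUD2 kept their signs, and EDEM1 and UFD1 took opposite signs.

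The COPII genes held none that was higher in pubertal cultures on both arrays, but 1 with the scanner's signals or with median centring. Of 24 measured genes of the coat and its exit sites, SEC23A and SEC24D included, 0 were higher and 9 lower, against 23.5% and 21.9% of all genes, and the other 15 had opposite signs. The medians were -0.12 on array 1 and -0.13 on array 2, against 0.05 and -0.03 over all genes. Among the 22 that are no members 0 passed the limma test and 1 had an unadjusted p under 0.05. The lower genes numbered 12 with the scanner's signals, or 50% against 23.2% of all genes. With median centring they numbered 2, or 8.33% against 9.75%. Once the medians of all probes were taken off they numbered 5, or 20.8% against 15%. The 1 higher gene was 4.17% under each of these settings, against 23.7%, 10.8% and 14.9% of all genes. Among the 9, SEC24A passed the filter on dim probes through the infant channels alone. PREB (SEC12), the exchange factor that starts the coat, was at -0.77 and -0.63, a mean of -0.70 ± 0.24. TRAPPC6A, of the TRAPP tether, was at -0.40 and -0.85, TRAPPC3 at -0.17 and -0.53, and SEC23IP at -0.14 and -0.49. PREB and TRAPPC6A kept their signs with median centring, less the medians, and SEC23IP and TRAPPC3 did not. On that scale TRAPPC6A was at only -0.04 on array 1. A further probe of SEC23IP had a mean of 0.02.

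LMAN1 was the 1 gene at least 2-fold higher on both arrays in the list of 42 measured cargo receptors and genes of the ER-Golgi intermediate compartment. Of the 39 that are no members, 11 were higher and another 11 lower on each array. With the members the shares were 31% and 26.2%, against 23.5% and 21.9% of all genes. The closest in kind were the relatives LMAN1L, at 0.38 and -0.21, and LMAN2L, at -0.84 and 0.29. TMED7, a p24 cargo receptor, was at 0.65 and 0.64, with levels of 559 pubertal and 356 infant on array 1 and 665 and 425 on array 2. TMED5 was at 0.74 and 0.24, and the SNARE genes SEC22B and SEC22A at 1.04 and 0.09 and at 0.40 and 0.52. A further SEC22A probe had a mean of -0.49 and a further TMED5 probe one of 0.10. With median centring, less the medians, TMED7 and SEC22A stayed above 0 on both arrays and TMED5 and SEC22B did not.

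The remaining folding genes, 41 beside the members, were split at 12 higher, 8 lower and 21 opposite, and 0 passed. With the members the shares were 27.3% higher and 22.7% lower, near those of all genes. MOGS, the glucosidase that trims the first glucose from N-glycans, was at 1.18 and 0.28. SERPINH1, the collagen chaperone HSP47, was at -1.18 and -0.30. The disulfide oxidases ERO1A and ERO1B were at -0.97 and -0.17 and at -0.24 and -1.10. Other probes gave means of 0.37 for MOGS and -0.65 for ERO1B. With median centring, less the medians, SERPINH1 and ERO1A stayed below 0 on both arrays, while MOGS and ERO1B took opposite signs.

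Of 21 COPI and retrieval genes 3 were higher on both arrays and 6 lower, or 14.3% and 28.6% against 23.5% and 21.9% of all genes. COPG1, a coat subunit, was at -0.80 and -0.77. ARFGAP3 was at -0.07 and -1.34, COPZ1 at -0.90 and -0.03 and the KDEL receptor KDELR1 at -0.23 and -0.30. Other probes gave means of 0.05 for COPZ1 and -0.19 for KDELR1. Of 33 translocon and N-glycosylation genes 6 were higher and 7 lower, or 18.2% and 21.2%. SSR3, of the translocon-associated complex, was at -0.68 and -0.77, SEC61A2 at -0.41 and -0.89, RPN2 at -0.98 and -0.17 and SEC63 at 0.82 and 0.20. None of either list passed the limma test after adjustment, and 1 of each had an unadjusted p under 0.05. Other probes gave means of -0.36 for SSR3, -0.47 for SEC61A2 and 0.18 to 0.24 for SEC63. COPG1, COPZ1, SSR3, SEC61A2 and RPN2 kept their signs with median centring, less the medians, and KDELR1, ARFGAP3 and SEC63 did not. On that scale SEC61A2 was at only -0.03 on array 1.

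Known cargo of LMAN1 and MCFD2 was read from a list of 6 genes. Of these 6 genes 5 were measured, with 1 higher and 3 lower on both arrays. Those are 20% and 60% of very few genes, against 23.5% and 21.9% of all genes. F5, coagulation factor V, had levels of 1571 pubertal and 488 infant on array 1 and 535 and 933 on array 2, so its ratios of 1.69 and -0.80 were opposite. F8, coagulation factor VIII, lay between 84.8 and 102 in all cultures, at -0.03 and -0.22. SERPINA1 was at 0.08 and 0.29, the cathepsin gene CTSC at -0.18 and -0.07 and LGALS3BP at -0.11 and -0.18, and with median centring, less the medians, F8 and SERPINA1 took opposite signs on the 2 arrays. No cargo gene followed LMAN1 in size on both arrays.

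Over all ER lists, 226 genes were measured, and 42 were higher, 57 lower and 127 opposite. That is 18.6% and 25.2%, against 23.5% and 21.9% of all genes. With median centring 9 were higher and 7 lower, or 3.98% and 3.1% against 10.8% and 9.75% of all genes. Less the medians of all probes they were 27 and 31, or 11.9% and 13.7% against 14.9% and 15%. The share of lower ER genes was thus above that of all genes only before median centring. Of the 216 that are no members 0 passed the limma test after adjustment. An unadjusted limma p under 0.05 was seen for 5, namely PREB, TMED7, COPG1, SSR3 and SESN2. That is a smaller share than the 1042 of 25759 tested probes, so it does not set the ER genes apart.

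**Figure D5:**
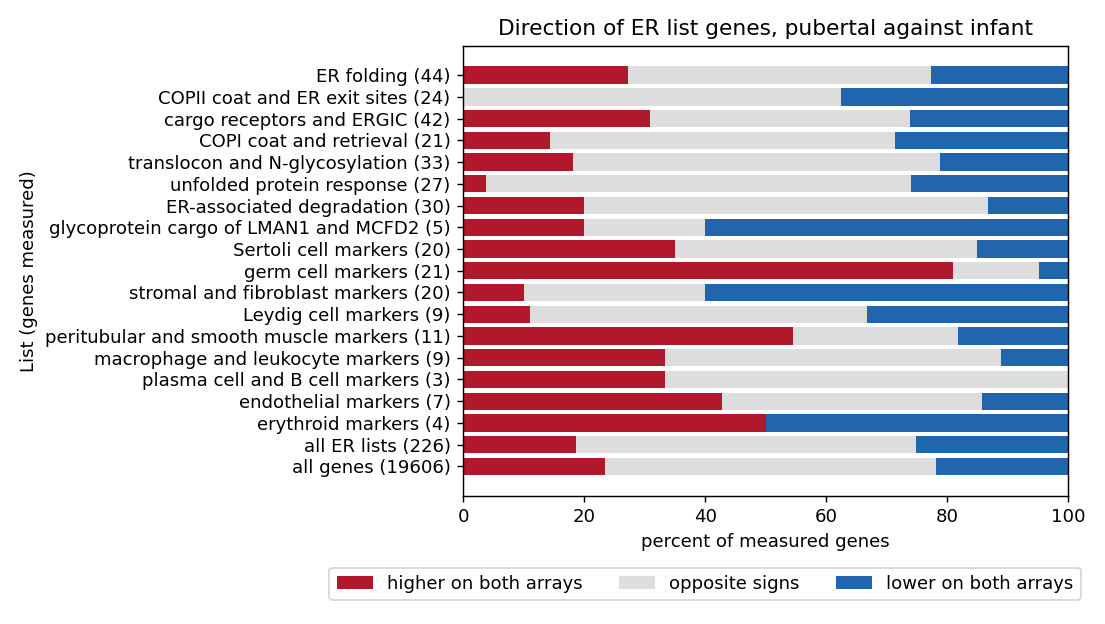
Percent of measured genes (x axis) that were higher in pubertal cultures on both arrays (red), lower on both (blue) or opposite (grey). Rows are each ER list, each cell marker list, all ER lists together and all genes (y axis, number measured in brackets). The COPII bar has no red part under this processing (1 gene with the scanner's signals or median centring), and all 19606 genes split into 23.5% higher and 21.9% lower.

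The 5 genes whose ratios lay nearest those of LMAN1 stood in none of the ER lists. Those lists hold only 226 of the 19606 genes, so this absence says little. By Euclidean distance over the 2 log2 ratios of the arrays, they were SPATA22 (distance 0.139), TUBB3 (0.253), GAL3ST1 (0.379), MNDA (0.379) and RIPK4 (0.460). SPATA22, a gene of meiotic recombination, was at 2.11 and 2.08 and the neuronal tubulin gene TUBB3 at 2.12 and 2.19. MNDA passed the filter on dim probes through the pubertal channels alone, which partly fixes its direction.

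Markers of other testicular cells were read in the same cultures, and 0 passed the limma test after adjustment. Over all genes 23.5% were higher on both arrays and 21.9% lower, or 14.9% and 15% with median centring, less the medians. Germ cell markers numbered 27 on the array and 21 measured. Of these, 17 (81%) were higher with puberty on each array and 1 (4.76%) was lower. With median centring, less the medians, 12 (57.1%) were higher and 1 (4.76%) lower. SYCP3, TEX11, MAGEA4, SOHLH1 and RNF17 passed the filter through the pubertal channels alone, so their direction was partly fixed by it. The summed level of the 21 markers, added over unlike probes, was 4814 to 5857 in pubertal and 3440 to 3471 in infant cultures. DAZL was at 1.18 and 1.65 and DDX4 at 0.61 and 0.28, while PIWIL1, SPO11, DMC1 and HORMAD1 were not well above background in any culture. Of 20 stromal and fibroblast markers 2 were higher and 12 lower, with summed levels of 74080 to 112100 in pubertal and 122300 to 148000 in infant cultures. Without the saturated VIM probe, a choice made after seeing the data, these sums were 42190 to 58410 and 84620 to 94020. Of 11 peritubular markers 6 were higher and 2 lower. With median centring they were 2 and 2, or 18.2% each against 10.8% and 9.75% of all genes, and 7 and 2 less the medians. Of 9 Leydig cell markers 1 was higher and 3 lower. Of the 20 Sertoli markers 7 were higher and 3 lower. Lower by at least 2-fold on both arrays were 3 Leydig markers, CYP17A1, DLK1 and PTGDS, and 4 stromal markers, and 0 of either list were higher by as much. Of the germ cell markers 3 were higher by as much and 0 lower, and of the Sertoli markers 2 and 0. Of all genes 0.352% were lower by that much and 0.342% higher. The Leydig markers CYP11A1, STAR, HSD3B1 and HSD3B2 each had a saturated spot. CYP11A1 was the 1 Leydig marker higher on both arrays, at 0.67 and 0.27. Another 5 had opposite signs, among them HSD17B3 at 1.86 and -0.55 and HSD3B2 at -0.44 and 2.46. The median of the mean log2 ratios of the 9 Leydig markers was 0.47. Of 9 macrophage and leukocyte markers 3 were higher and 1 lower, of 7 endothelial markers 3 and 1, of 4 erythroid markers 2 and 2, and of 3 plasma cell and B cell markers 1 and 0. The part of these cells in the LMAN1 difference was not tested.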

How the data were processed

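RNA of 2 pubertal and 2 infant Sertoli cell cultures was hybridised in pairs to 2 two-colour Agilent arrays (design 014850), with the dyes swapped between pairs. By the series' design text the 2 cultures of a stage are biological replicates. The submitters' processing notes name Agilent Feature Extraction 9.5.1.1 for the scanner files. The deposited files give mean and background intensity per spot, not normalized, and processed intensity, background-subtracted and dye-normalized, per the file headers. They also give a log10 ratio of Cy5 over Cy3, not used as a value here, and spot marks (other flags), per the file headers. The authors' deposited table gives log2 ratios of pubertal over infant for 4848 probes. Set against the scanner's signals its slopes were 1.01 and 1.00 and its column medians -0.37 and 0.12. Its normalization is not given in the sources used here.

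Intensities were background-corrected by normexp (offset 50) and loess-normalized in limma 3.58.1 under R 4.3.3, without spots marked as outliers. Levels were further scaled between arrays by Aquantile. The dye labels set the sign, so that every ratio is pubertal over infant. Probes well above background in both pubertal or both infant channels were kept (25759 of 41000) and tested singly with lmFit and eBayes, two-sided, at 0.05 after Benjamini-Hochberg adjustment. Residual degrees of freedom were 1 from the arrays and 4.34 from the prior. A gene in a list is its brightest kept probe (19606 genes, or single probes without a symbol). The functions were tested on simulated data. All 10 members stood in the macaque gene table. Array symbols older than the list's were matched by hand-written synonyms. Named beside the members are, per ER list, up to 4 genes with the same sign on both arrays and the largest mean ratio, and the 5 genes nearest LMAN1. Members and lists were chosen with earlier results of these data known. Alternatives covered the offset, the scanner's signals, median centring, the filters, saturated spots, 1 probe per gene, an intensity trend, the authors' table and single arrays. Precision is limited by the number of arrays.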

Additional observations from a re-analysis of the deposited data

How the results depend on the processing

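LMAN1 stayed higher in pubertal cultures at both probes under every alternative that gave a value. Its mean log2 ratio at A_23_P78342 was 2.60 at an offset of 0, 2.74 with the scanner's signals and 2.74 from the authors' deposited table, and 1.95 to 2.06 on single arrays. At A_24_P159702 it was 0.61, 0.66 and 0.46 with offset 0, the scanner's signals and median centring, and 0.41 to 0.45 on single arrays. Of the 9 member probes with the same sign on both arrays, 9 kept it at offset 0, 9 with the scanner's signals and 3 with median centring, both of LMAN1 and A_24_P926859 of SEC24D. Median centring left all tested probes at medians of 0.57 and -0.37, towards Cy5 on both arrays, which by itself turns small ratios. Less these medians, a scale chosen after seeing the data, 5 of the 9 kept their sign. LMAN1 was then at 2.01 and 1.94 (A_23_P78342) and at 0.19 and 0.52 (A_24_P159702). Of the 32 genes named by rule from the ER lists 18 kept their sign. Several of these probes and genes lay close to 0 on an array.

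Over all probes the count passing limma's test was 0, and 1 (CST9L) with offset 0, median centring, the stricter filter, or an intensity trend. In the authors' table it was 1 of 4151. Probes at least 2-fold higher on both arrays numbered 192, 326 and 152 with offset 0, the scanner's signals and the authors' table, and 569 to 956 on single arrays. Those lower numbered 149, 264, 164 and, with median centring, 29, and 525 to 731 on single arrays. In the Cy5 over Cy3 direction 54 were higher and 122 lower, which became 124 and 187 with offset 0, 171 and 290 with the scanner's signals, or 1726 and 9 by median centring. Of the ER list genes 9 were higher and 7 lower with median centring, or 3.98% and 3.1% against 10.8% and 9.75% of all genes. On single arrays 84 to 127 were higher and 99 to 142 lower. Of 111 other values of members under the alternatives that use both arrays, 106 moved by less than the spread between arrays and 5 by more. The filters, saturated spots, 1 probe per gene and the intensity trend do not change a probe's ratio, so most of the 111 could not move. The 5 moves came with offset 0, the scanner's signals or median centring.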
